A study of Homo sapiens with 6 samples.

Results

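The ATP-binding cassette (ABC) family was followed in nascent RNA of HCT116 cells, a human colorectal carcinoma line. Its members were chosen by gene symbol, as every gene counted on its sense strand whose name is ABC, a letter from A to G and digits only. This gave 46 members of the 22984 genes counted. Of these, 33 members had 10 or more counts in every library. A mean of 50 or more counts over the 6 libraries was required for comparing treatments and left 28 members. ABCC2 names the group because of its response to treatment, so that response is described here and not tested.

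ABC proteins use ATP binding and hydrolysis at paired nucleotide-binding domains to drive movement of a substrate or a change of shape. Subfamily A members move lipids, subfamily B holds the P-glycoprotein pump with peptide and mitochondrial carriers, and subfamily C holds the multidrug resistance proteins, which export glutathione, glucuronide and sulphate conjugates. Subfamily D serves peroxisomes and lysosomes, and subfamily G moves sterols, urate and drugs. The proteins of subfamilies E and F have no membrane-spanning part and act on ribosomes and translation. In intestinal epithelium, ABCC2 lies in the apical membrane and releases conjugates into the lumen. Glutathione S-transferase omega 1 (GSTO1), the target in the study, is a glutathione-dependent enzyme with thioltransferase activity.

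Bromouridine was given for 30 min at the end of each treatment, and the labelled RNA, which reads out transcription rather than the standing pool of RNA, was captured and sequenced (Bru-seq). There were 2 DMSO cultures (0.01%, 4 h) and 1 culture each of siGSTO1 (GSTO1 siRNA at 10 nM, 24 h), C1-27 (1 µM) for 4 h, C1-27 (1 µM) for 24 h, and C1-14 (10 µM, 4 h). C1-27 is an inhibitor of GSTO1 and C1-14 its inactive analogue. The labels number the 2 DMSO replicates without stating that they were grown apart. They are called cultures here, and their spread may be technical. A treatment with 1 culture has no replicate of its own, and a DMSO culture of 24 h and a non-targeting siRNA were not analysed here. The 24 h treatments therefore differ from DMSO also in time, and siGSTO1 also in transfection, which cannot be told apart from the treatment. Libraries held 18112861 to 36841146 sense counts. Most epithelial markers matched the line, with 6 of 8 at 10 or more counts in every library. The summed level was 14.5 to 32.7 RPKM (reads per kilobase of gene, scaled to the mapped reads of the library). The 2 that did not were the intestinal factor CDX1, with 0 counts in all libraries, and VIL1, with 0 to 3. Of 9 markers of other cell types, 2 reached 10 counts in every library, and their sum was 0.283 to 0.565 RPKM. The 2 that did were PECAM1 and COL1A1, and the fibroblast collagen COL1A1 was highest in siGSTO1, at 0.313 RPKM (49 counts) against 0.140 and 0.0609 in DMSO (19 and 15 counts). The keratin KRT8 was lower in C1-27 at 24 h (edgeR adjusted p = 0.0441) and KRT18 was past 1.4-fold higher in C1-14, and their part in the results was not tested.

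Transcription of the family in DMSO was carried by few members. ABCE1, which splits ribosomes after termination, had the highest level at 7.92 ± 1.44 RPKM (SD, n = 2), or 30% of the summed level of the family. The 3 members of subfamily F, translation factors of the same cytosolic type, added 25.2%. Subfamily C contributed 23.3%, B 10.8%, D 8.1%, A 2.34% and G 0.323%. Subfamilies A and C were the largest, with 12 members each, yet the median member of A was at 0.0196 RPKM and that of C at 0.234 RPKM. The median was 0.212 RPKM in B (9 members), 0.246 RPKM in D (4 members), 2.26 RPKM in F and 0.00235 RPKM in G (5 members). The medians of the ribosome-acting subfamilies E and F thus lay above those of all membrane carriers, and the medians of B, C and D lay close together.

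**Figure D1:**
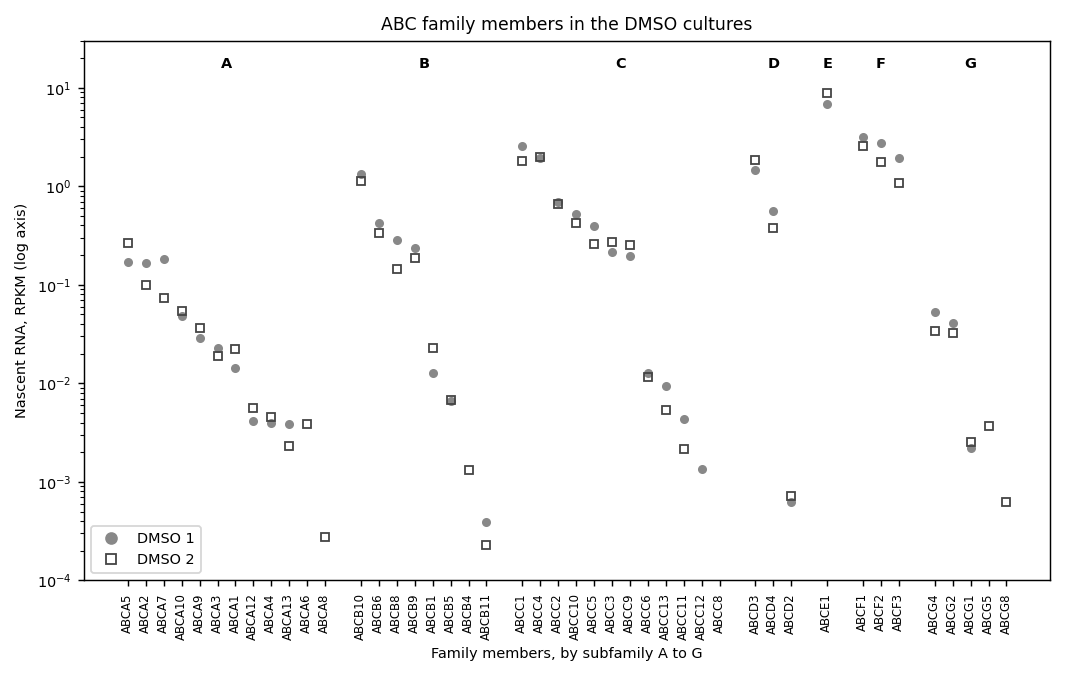
Level of 44 members in the DMSO cultures, in RPKM on a log axis, with members ordered within subfamilies A to G and 1 point for each DMSO culture; a level of 0 cannot be drawn on this axis, so ABCC8 has no point and 6 members have only 1. ABCE1 and the 3 members of subfamily F lie above 1 RPKM in both cultures, and most members of A and G below 0.1 RPKM.

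The leading member differed widely in level between subfamilies. ABCF1, a factor of translation initiation, was at 3.19 and 2.56 RPKM in the DMSO cultures, 2.65 in siGSTO1, 2.67 and 2.60 in C1-27 at 4 and 24 h, and 2.57 in C1-14. ABCC1, the multidrug resistance protein MRP1, was at 2.59 and 1.82, then 2.42, 1.89, 1.96 and 2.37 RPKM in the same order. The RPKM of ABCC1 rests on 3.39% of its length, 6563 of 193497 bp (hg19 chr16:16043434-16236930, plus strand), and annotated spans of MIR3179 and MIR3180 overlap it on the same strand. ABCD3, the peroxisomal carrier of acyl-CoA and bile acid precursors, was at 1.45, 1.84, 1.20, 1.77, 1.58 and 1.76 RPKM. ABCE1 itself was at 6.90, 8.94, 5.61, 8.63, 6.99 and 8.38 RPKM. Both ABCD3 and ABCE1 had their lowest level in siGSTO1. The leading members of the other subfamilies were ABCB10 at 1.24 ± 0.131, ABCA5 at 0.220 ± 0.0681 and ABCG4 at 0.0438 ± 0.0136 RPKM (SD, n = 2).

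Members with 10 or more counts numbered 33 in DMSO 1, 36 in DMSO 2, 36 in siGSTO1, 38 in C1-27 at 4 h, 36 in C1-27 at 24 h and 35 in C1-14. In every library the threshold was met by 10 of 12 members of subfamily A, 7 of 9 of B, 8 of 12 of C, 2 of 4 of D, the 1 member of E, all 3 of F and 2 of 5 of G. Below 10 counts in each library were ABCA8, ABCB11, ABCC8, ABCC12, ABCC13, ABCD2, ABCG5 and ABCG8. These include the bile salt pump ABCB11, the sulphonylurea receptor ABCC8 and the sterol half-transporters ABCG5 and ABCG8, whose known sites are liver, pancreatic islet and absorptive gut. Just inside the threshold lay ABCA4, the retinal retinoid carrier, with 11 to 24 counts. Just outside lay ABCC11 with 6 to 12, ABCG1 with 4 to 27, ABCA6 with 0 to 16 and ABCB4 with 0 to 12. At these depths a low count limits what can be seen and does not show that a gene is silent. ABCA13, ABCA4, ABCB5, ABCC6 and ABCG4 passed 10 counts in every library but stayed under the mean of 50 needed for comparison, and ABCC6 also has pseudogene copies that could share its reads.

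The spread between the DMSO cultures set the limit for every comparison. Past 1.4-fold, 3 of 28 members were higher in DMSO 2 than in DMSO 1 (ABCA1, ABCA5 and ABCB1; 4.52% of all 11751 genes compared) and 8 were lower (ABCA2, ABCA7, ABCB8, ABCC1, ABCC5, ABCD4, ABCF2 and ABCF3; 19.5% of all genes). The median ratio of DMSO 2 to DMSO 1 was 0.839 for members and 0.928 for all genes. This ratio went with gene length. All 9 members counted over 25 kb or less were lower in DMSO 2, with a median ratio of 0.661, against 7 of 19 longer members, with a median of 1.13. The same split over all genes gave 0.834 and 0.991. Spearman's rho between counted length and the ratio was 0.742 across 28 members and 0.343 across 11750 genes, as a description, since genes of a library share its preparation and depth. A treated level was therefore called here only where it was 1.4-fold or more above, or below, each DMSO culture taken alone. The part of length in the treated folds was not tested.

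**Figure D2:**
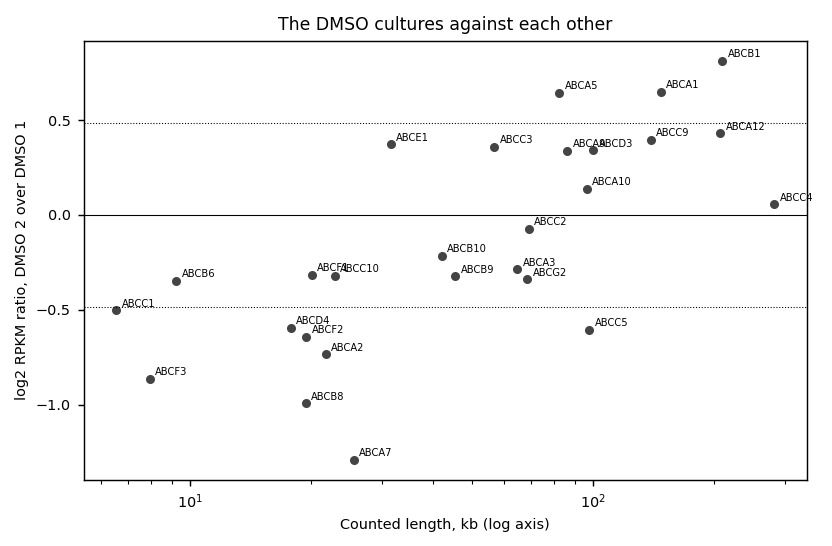
The log2 ratio of RPKM between DMSO culture 2 and DMSO culture 1 (vertical axis) against counted length in kb (horizontal log axis) for 27 of the 28 members compared, 1 point each; dotted lines mark 1.4-fold. All 9 members of 25 kb or less lie below 0, and ABCB1, ABCA1 and ABCA5 lie above the upper dotted line.

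With siGSTO1, the lipid carriers ABCA12 and ABCA1 rose, 11 of 28 members were past 1.4-fold above each DMSO culture, and ABCB10 alone was past it below each of them. For ABCA12, which loads lipid into the granules of keratinocytes, the DMSO libraries had 20 and 47 counts and the siGSTO1 library 177, while C1-27 gave 38 at 4 h and 49 at 24 h, and C1-14 gave 47. In RPKM these are 0.00413, 0.00557, 0.0326, 0.00475, 0.00515 and 0.00655. For ABCA1, the exporter of cellular cholesterol to apolipoprotein A-I, counts were 49 and 134 in DMSO, 326 in siGSTO1, 77 and 231 in C1-27 at 4 and 24 h, and 95 in C1-14. The siGSTO1 library was the highest of the 6 for both genes, and lay far outside the range of DMSO. In the edgeR quasi-likelihood test over 14431 genes, the log2 fold was 2.61 ± 0.543 (SE) for ABCA12 (adjusted p = 1.88e-04) and 2.07 ± 0.457 for ABCA1 (adjusted p = 5.34e-04). These were the 2 members called of the 36 tested besides ABCC2, where 4.16% of all genes were called. The spread in this test comes from the 2 DMSO cultures alone. DESeq2 called ABCA1 (adjusted p = 0.0387) and not ABCA12 (adjusted p = 0.0694). In a bulk culture, a higher rate per cell and a larger share of transcribing cells cannot be told apart.

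The other members above both DMSO cultures in siGSTO1 were spread over lipid carriers, pumps and organelle transporters. They were ABCA3, ABCA7, ABCA10, ABCB1, ABCB9, ABCC2, ABCC5, ABCD4 and ABCG2, and of these edgeR called none of the 8 tested, ABCC2 being left out of the test. Over all genes compared, 14.4% were past 1.4-fold higher and 2.96% lower. Genes of low level were higher in siGSTO1 in general. Among genes with a mean of up to 0.1 RPKM the share called higher was 51.9%, and 6 of 7 members were called. Between 0.1 and 0.5 RPKM it was 26.8%, with 3 of 10 members, and above 0.5 RPKM it was 4.94%, with 2 of 11 members, ABCC2 and ABCD4. Median folds at these levels were 1.67, 1.27 and 0.99 for all genes and 2.05, 1.42 and 0.908 for members. The median of members was above that of all genes in the lower ranges and below it in the top range. ABCA12 and ABCA3 reached the mean of 50 counts only with the siGSTO1 library included (40.2 and 48.6 without it). Their place among the 28, and among the 7 of lowest level, is therefore not independent of that library. For all genes, too, the count filter and the level ranges include the siGSTO1 library. The shares and medians of all genes by level are thus not independent of it either. ABCC2 was chosen for its response, so the counts and medians that include it are not independent of that choice.

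**Figure D3:**
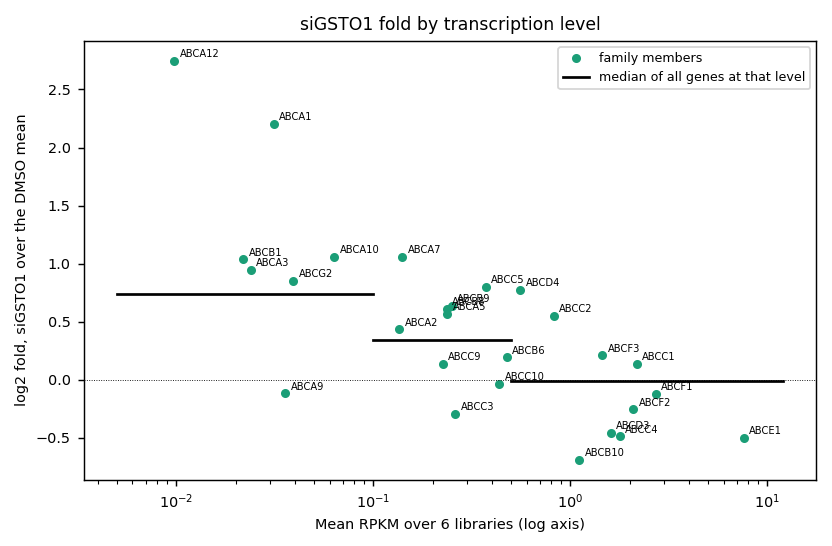
The log2 fold of siGSTO1 over the DMSO mean (vertical axis) against the mean RPKM of the 6 libraries (horizontal log axis), with 1 point for each of 27 of the 28 members compared; black bars give the median of all genes with a mean of up to 0.1, 0.1 to 0.5 and above 0.5 RPKM. ABCA12 and ABCA1 lie well above the bar of their level, and the members above 1 RPKM lie near or below 0.

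Scaling moved this count. With TMM factors the median of all genes shifted by -0.11 (log2) and with DESeq2 size factors by -0.15 (log2). The members called were then 6 higher against 2 lower and 5 higher against 2 lower, in place of 11 against 1. Over all 11751 genes compared, the number higher went from 1687 to 1310 and 1234, and the number lower from 348 to 583 and 684. ABCA1, ABCA3, ABCA10, ABCA12 and ABCG2 were among those higher under each scaling. ABCA7, ABCB9, ABCC2, ABCC5 and ABCD4 were not past 1.4-fold under either other scaling, and ABCC4 was added to those lower.

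Within subfamilies, the members called higher in siGSTO1 (14.4% of all genes) were 5 of 8 compared in A, 2 of 6 in B, 2 of 7 in C, 1 of 2 in D, 0 of 1 in E, 0 of 3 in F and 1 of 1 in G, and the 1 called lower, ABCB10, is in B. The median fold over the DMSO mean was 2.01 in A, 1.32 in B, 1.10 in C, 1.12 in D, 0.708 in E, 0.922 in F and 1.81 in G. E and F, the subfamilies of highest level, had the lowest medians, and A and G, those of lowest level, the highest. Of the 8 compared in A, ABCA12 and ABCA3 reached the mean count needed for comparison only with the siGSTO1 library included. The count and median of A in siGSTO1 are therefore not independent of that library. Whether subfamilies differ apart from level was not tested. In subfamily A, ABCA10, a member of unsettled function, was at 0.0488 and 0.0537 RPKM in DMSO and 0.107 in siGSTO1, and at 0.0566, 0.0572 and 0.0565 in C1-27 at 4 and 24 h and C1-14. ABCA5, which lies directly upstream of ABCA10 on the same strand, had 1.48-fold the DMSO mean in siGSTO1, at 0.172 and 0.268 RPKM in DMSO, 0.326 in siGSTO1 and 0.199, 0.188 and 0.273 in the other 3 libraries. ABCA3, the surfactant lipid carrier, was at 0.0231 and 0.0189 RPKM in DMSO, 0.0405 in siGSTO1 and 0.0187 to 0.0224 elsewhere. ABCA7, a phospholipid carrier, was at 0.181 and 0.0741 RPKM in DMSO and 0.266 in siGSTO1, so that its DMSO cultures differed more than DMSO 1 and siGSTO1 did. ABCA9 was the member of this low range not called, at 0.922-fold.

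Organelle transporters and conjugate pumps gave smaller folds. ABCB9, a lysosomal peptide carrier, was at 0.236 and 0.188 RPKM in DMSO, 0.330 in siGSTO1, 0.210 and 0.328 in C1-27 at 4 and 24 h, and 0.211 in C1-14. ABCD4, which releases cobalamin from lysosomes, was at 0.565 and 0.374, then 0.803, 0.448, 0.710 and 0.435 RPKM. ABCC5, the pump MRP5 for cyclic nucleotides, was at 0.399 and 0.262, then 0.577, 0.269, 0.438 and 0.288 RPKM. In all 3 the siGSTO1 library was the highest, C1-27 at 24 h was next, and C1-27 at 4 h and C1-14 lay within the range of the DMSO cultures. Against the DMSO mean the siGSTO1 fold was 1.56 for ABCB9, 1.71 for ABCD4 and 1.74 for ABCC5.

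Several members of high level lay below both DMSO cultures in siGSTO1. ABCB10, a carrier of the inner mitochondrial membrane linked to haem synthesis, was at 1.33 and 1.14 RPKM in DMSO, 0.768 in siGSTO1, 1.16 and 1.03 in C1-27 at 4 and 24 h and 1.21 in C1-14. Its level in siGSTO1 was 0.621 of the DMSO mean (95% exact interval of the pooled ratio 0.587 to 0.684, counting error only), below every other library, and edgeR gave a log2 fold of -0.80 ± 0.27 (adjusted p = 0.0670), which does not pass. ABCC4, the pump MRP4 for cyclic nucleotides and prostaglandins, was at 0.714 of the DMSO mean, ABCE1 at 0.708 and ABCD3 at 0.730. In edgeR these had adjusted p of 0.340, 0.228 and 0.241. The unadjusted p from edgeR was under 0.05 for 11 of 36 members (14.3% of all genes), of which ABCB10, ABCC4, ABCD3 and ABCE1 were on the lower side.

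**Figure D4:**
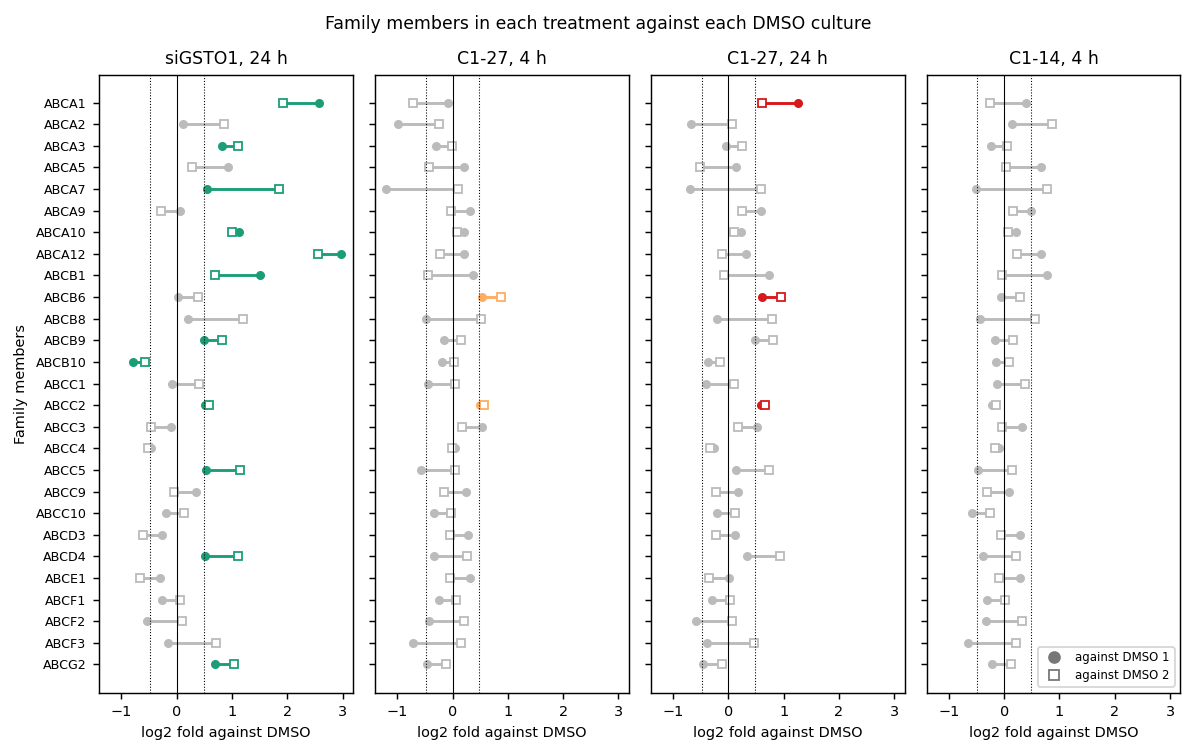
The log2 fold of each treatment against DMSO culture 1 (filled circle) and DMSO culture 2 (open square), joined by a line, for 27 of the 28 members compared; dotted lines mark 1.4-fold and coloured members are past it against both cultures. Coloured members number 12 in siGSTO1, 2 in C1-27 at 4 h, 3 in C1-27 at 24 h and 0 in C1-14.

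With C1-27 for 4 h, ABCC2 and ABCB6 were the members past 1.4-fold above each DMSO culture, where 0.187% of all genes were, and 0 of 28 members were below (0.587% of all genes). At 24 h, ABCC2, ABCB6 and ABCA1 were above, against 4.12% of all genes, and 0 members below (1.09%). ABCC2, the apical conjugate pump MRP2 (hg19 chr10:101542463-101611662, plus strand), had 1119 and 1856 counts in DMSO, 1798 in siGSTO1, 2609 and 3296 in C1-27 at 4 and 24 h, and 1427 in C1-14. In RPKM this was 0.691 and 0.658 in DMSO, 0.990 in siGSTO1, 0.975 and 1.04 in C1-27 and 0.595 in C1-14. The 3 libraries of siGSTO1 and C1-27 lay above both DMSO cultures, which differed by little, and the C1-14 library lay below them. Against the DMSO mean of 0.674 ± 0.0239 RPKM (SD, n = 2) the fold was 1.47 in siGSTO1, 1.45 and 1.53 in C1-27, and 0.882 in C1-14. Exact 95% intervals of the pooled ratio, which cover counting error only, were 1.39 to 1.57, 1.38 to 1.53, 1.47 to 1.62, and 0.833 to 0.946. As ABCC2 was chosen for these values, they are a description. The counts of members past 1.4-fold include ABCC2 and are not independent of that choice. The 3 folds share the same DMSO cultures, and the fold in siGSTO1 was under 1.4 with TMM factors (0.44 on the log2 scale).

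ABCB6, a porphyrin transporter of mitochondria and other membranes (hg19 chr2:220074488-220083712, minus strand), differed from ABCC2 in that siGSTO1 left it near DMSO. Its counts were 92 and 126 in DMSO, 105 in siGSTO1, 219 and 274 in C1-27 at 4 and 24 h, and 130 in C1-14. The levels were 0.425 and 0.334 RPKM in DMSO, 0.434 in siGSTO1, 0.614 and 0.646 in C1-27 and 0.407 in C1-14. Both C1-27 libraries were above the other 4. Against the DMSO mean the fold was 1.62 at 4 h (95% exact interval of the pooled ratio 1.38 to 2.03) and 1.70 at 24 h (1.47 to 2.11), 1.14 in siGSTO1 and 1.07 in C1-14. ATG9A ends 389 bp upstream of ABCB6 on the same strand and was at 1.01-fold and 1.26-fold in C1-27 at 4 and 24 h. By edgeR, 0 of 36 members were called in C1-27 at 4 h and 0 at 24 h, with 0 at an unadjusted p under 0.05 (0.721% of all genes at 4 h and 3.74% at 24 h) and 0 by DESeq2 in each. The share of all genes that edgeR called was 0.0139% at 4 h and 0.277% at 24 h. For ABCB6 its log2 fold was 0.72 ± 0.467 (SE) at 4 h and 0.72 ± 0.465 at 24 h, each with an adjusted p of 1. ABCB6 was thus past 1.4-fold against both DMSO cultures without passing the test, and with a pseudocount of 0.1 RPKM neither it nor ABCC2 was past 1.4-fold at 4 h.

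**Figure D5:**
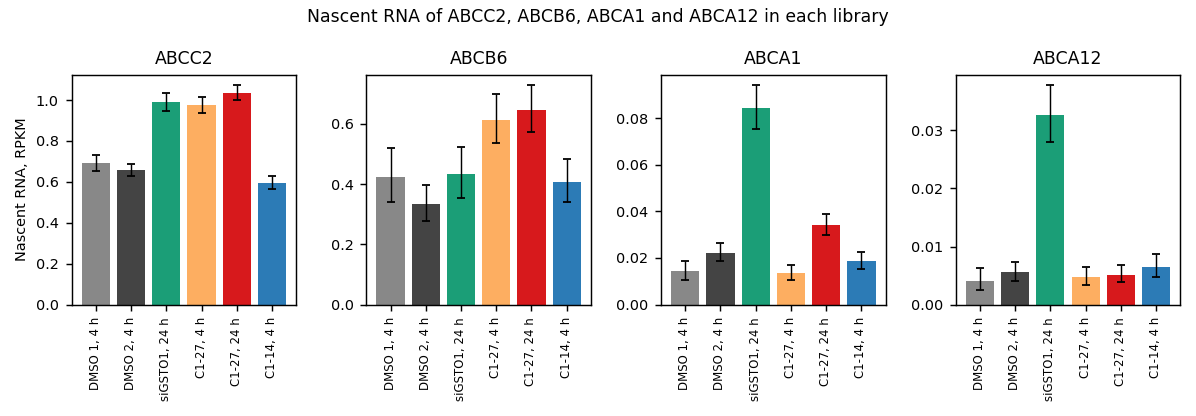
Level of ABCC2, ABCB6, ABCA1 and ABCA12 in each library, in RPKM; bars start at 0, and whiskers are exact 95% Poisson intervals of the count, which leave out the spread between cultures. For ABCC2, siGSTO1 and both C1-27 libraries stand above DMSO, for ABCB6 both C1-27 libraries do, and for ABCA12 siGSTO1 alone does.

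ABCC2 and ABCB6 had similar levels at both times of C1-27, and ABCA1 had not. ABCA1 was at 0.0142 and 0.0223 RPKM in DMSO, 0.0843 in siGSTO1, 0.0135 and 0.0341 in C1-27 at 4 and 24 h, and 0.0186 in C1-14. At 4 h it was close to the lower DMSO culture and at 24 h above both, with folds of 0.740 and 1.87 over their mean, and with DESeq2 size factors it was no longer past 1.4-fold at 24 h. When C1-27 at 24 h was tested against C1-27 at 4 h by edgeR, 0 of 36 members were called (0.104% of all genes), and 2, ABCA1 and ABCC5, had an unadjusted p under 0.05 (2.46% of all genes). The median fold of members was 0.947 at 4 h and 1.02 at 24 h, beside 0.971 and 1.03 for all genes. By subfamily the medians at 4 h ran from 0.808 in G to 1.09 in E, and at 24 h from 0.817 in G to 1.21 in D. Only 1 member was compared in G, 1 in E and 2 in D, so these ends are values of single genes or pairs.

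The promoters of the 3 members that the C1-27 results turn on are shown, these being the genes past 1.4-fold at 24 h. Each is the 250 bases before the RefSeq start in GRCh38.p14, on the strand of the gene. They lie at chr10:99782390-99782639 (ABCC2, plus), chr2:219218959-219219208 (ABCB6, minus) and chr9:104928156-104928405 (ABCA1, minus). Capitals mark matches, on either strand, to the antioxidant response element core TGACNNNGC, which NRF2 binds, and to the E-box CACGTG, which basic helix-loop-helix factors bind. AP-1 sites, TGANTCA, were also searched.
ABCC2: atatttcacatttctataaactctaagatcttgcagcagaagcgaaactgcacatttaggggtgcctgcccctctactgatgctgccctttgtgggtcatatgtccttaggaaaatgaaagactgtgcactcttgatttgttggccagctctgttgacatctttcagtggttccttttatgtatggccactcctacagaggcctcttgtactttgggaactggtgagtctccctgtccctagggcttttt
ABCB6: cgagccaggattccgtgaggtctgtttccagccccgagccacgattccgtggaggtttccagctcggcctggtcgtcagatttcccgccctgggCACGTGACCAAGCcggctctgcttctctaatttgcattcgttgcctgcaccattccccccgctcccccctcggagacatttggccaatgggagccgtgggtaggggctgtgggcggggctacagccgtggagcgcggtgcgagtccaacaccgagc
ABCA1: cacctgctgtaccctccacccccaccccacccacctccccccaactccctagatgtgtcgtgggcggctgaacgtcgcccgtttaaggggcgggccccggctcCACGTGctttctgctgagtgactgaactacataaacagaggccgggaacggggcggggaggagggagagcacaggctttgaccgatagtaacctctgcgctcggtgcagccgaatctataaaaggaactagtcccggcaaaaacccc
In ABCB6 the response element lies 144 to 152 bases before the start, and an E-box at 151 to 156 bases overlaps it. ABCA1 has an E-box at 142 to 147 bases, and the ABCC2 window holds no match to the 3 motifs. Of 35116 promoters, 10.9% held the response element core, 6.34% the E-box and 6.57% the AP-1 site. Promoters were found for 35 of 46 members, of which 6 (ABCA2, ABCA3, ABCB6, ABCC4, ABCD4 and ABCF1) held the response element core, 4 (ABCA1, ABCA9, ABCB6 and ABCF1) the E-box and 1 (ABCB11) the AP-1 site. These matches describe letters in the window and do not show binding.

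C1-14 gave no call in the family. The members past 1.4-fold against each DMSO culture were 0 higher, where 1.23% of all genes were, and 0 lower, where 0.434% were. By edgeR 0 of 36 members were called, 0 had an unadjusted p under 0.05 (1.42% of all genes) and 0 were called by DESeq2, while 0.118% of all genes were called by edgeR. The median fold was 0.993 for members and 0.987 for all genes. C1-27 at 1 µM and C1-14 at 10 µM for 4 h differ in dose, so their values stand side by side without a comparison. For ABCC2 the fold was 1.45 with C1-27 and 0.882 with C1-14, for ABCB6 1.62 and 1.07, for ABCA1 0.740 and 1.02, and for ABCC3, the basolateral conjugate pump MRP3, 1.26 and 1.10.

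Of the drug efflux pumps ABCB1, ABCC1 and ABCG2, ABCB1 and ABCG2 were low in these cells. ABCB1, P-glycoprotein, had 63 and 193 counts in DMSO, 200 in siGSTO1, 135 and 205 in C1-27 at 4 and 24 h and 159 in C1-14, or 0.0129, 0.0226, 0.0364, 0.0167, 0.0213 and 0.0219 RPKM. The siGSTO1 level was the highest, and the DMSO cultures differed by 1.76-fold. RUNDC3B overlaps ABCB1 on the other strand and was at 2.27-fold the DMSO mean in siGSTO1. ABCG2, the breast cancer resistance protein, had 66 and 91 counts in DMSO, 120 in siGSTO1, 79 and 95 in C1-27 and 84 in C1-14, or 0.0411, 0.0325, 0.0666, 0.0298, 0.0301 and 0.0353 RPKM. The fold in siGSTO1 was 2.05 for ABCB1 and 1.81 for ABCG2, beside a median of 1.67 for all genes at that level. That median is not independent of the siGSTO1 library. ABCC1 was at 1.10-fold in siGSTO1 and 0.857-fold and 0.887-fold in C1-27. ABCG4, a sterol exporter with 17 to 43 counts, was at 0.0534 and 0.0342 RPKM in DMSO, 0.115 in siGSTO1, 0.0455 and 0.0686 in C1-27 and 0.0670 in C1-14.

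Genes that work with the family were read from lists set by function, beside the shares of all genes past 1.4-fold. These were 14.4% higher and 2.96% lower in siGSTO1, 0.187% and 0.587% in C1-27 at 4 h, 4.12% and 1.09% in C1-27 at 24 h, and 1.23% and 0.434% in C1-14. Of 16 transcription factors of ABC genes, 11 could be compared. In siGSTO1 4 of them were past 1.4-fold higher (SREBF1, SREBF2, PPARG and RXRB) and 0 lower. SREBF2, the master regulator of cholesterol synthesis, was at 0.874 and 0.850 RPKM in DMSO, 1.74 in siGSTO1, 0.910 and 1.55 in C1-27 at 4 and 24 h and 0.878 in C1-14, and SREBF1, its partner for fatty acid synthesis, at 1.71 and 0.995 in DMSO and 2.87 in siGSTO1. By edgeR both rose in siGSTO1 (adjusted p = 0.00634 for SREBF2 and 0.00733 for SREBF1). The list had SREBF2 alone past 1.4-fold in C1-27 at 24 h, and 0 of 11 in C1-27 at 4 h and in C1-14. NFE2L2, which encodes NRF2, and the liver X receptors NR1H2 and NR1H3, which drive ABCA1, were at 0.859-fold, 1.25-fold and 1.09-fold in siGSTO1.

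Among 22 genes of glutathione synthesis and conjugation, 13 were compared. C1-27 at 4 h had GCLC and GCLM, the subunits of the first enzyme of glutathione synthesis, past 1.4-fold higher and GSTM3 lower. At 24 h GCLC and glutathione reductase, GSR, were higher. GCLM was at 2.27 and 2.38 RPKM in DMSO, 1.90 in siGSTO1, 4.74 and 3.31 in C1-27 and 2.48 in C1-14, and GCLC at 2.32, 1.97, 2.84, 3.50, 4.11 and 2.03. The adjusted p from edgeR was 0.0575 for GCLM at 4 h and 0.0570 for GCLC at 24 h, and 0 of the list were called. In siGSTO1, GSTM3 and MGST2 were higher, and in C1-14 GSTM3 was lower. Of 15 protein partners, 12 were compared, and siGSTO1 had KCNJ11, the channel partner of ABCC8, higher and EZR, which ties membrane proteins to the actin cortex, lower. EZR fell from 27.5 and 35.9 RPKM in DMSO to 15.0 in siGSTO1 (edgeR adjusted p = 0.0378), and 0 partners were past 1.4-fold with C1-27 or C1-14. Of 3 ABC genes with other symbols, TAP1, the antigen peptide transporter, was past 1.4-fold higher in siGSTO1 at 0.348 RPKM against 0.166 and 0.146 in DMSO, TAP2 was at 0.931-fold, and CFTR had 0 or 1 count.

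GSTO1 was at 3.51 and 3.72 RPKM in DMSO, 2.70 in siGSTO1, 3.78 and 4.21 in C1-27 and 3.82 in C1-14. An siRNA acts on mature RNA, so these nascent levels do not measure the knockdown.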

How the data were processed

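Nascent RNA was measured by Bru-seq in 6 HCT116 libraries. Per the labels, the submitters' processing notes name CASAVA 1.8.2, Bowtie 0.12.8, TopHat 1.4.1, bedtools 2.16.2 and hg19. Each deposited file lists, by gene and by strand, estimated counts that are not all whole numbers, a coverage signal (reads per bp, not used here) and RPKM, all as computed by the authors. Counts were rounded for tests.

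Members and lists were chosen with earlier results of these data known. Named genes were ABCC2, members past 1.4-fold against each DMSO culture or called by edgeR, the leading member of each subfamily, and ABCB1, ABCC1 and ABCG2. Folds are ratios of deposited RPKM for genes above 300 bp with a mean of 50 or more counts over 6 libraries. edgeR 4.0.16 (TMM, quasi-likelihood, Benjamini-Hochberg over all genes) used genes with 10 or more counts in 2 or more libraries, in 5 groups, with 1 residual degree of freedom from DMSO and a common dispersion of 0.0381. Adjusted p under 0.05 was called. DESeq2 1.42.0 was an alternative. Pooled ratios set treated counts against both DMSO counts together, with 95% Clopper-Pearson bounds. Replicates have no stated separate origin, so the spread may be technical. Splits by level, and further DMSO alternatives, were added after seeing the data. Single values of 2 members are not reported here, and figures leave them out, although counts and medians include them. Promoters came from RefSeq (GRCh38.p14), and gene coordinates are those of the deposited hg19 files. Depth was 18112861 to 36841146 sense counts.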

Additional observations from a re-analysis of the deposited data

Results flagged for a closer look

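Antisense counts over the members were outside the comparisons and made 2.85 to 3.96% of gene counts per library. Of 44 members with an antisense entry, 5 had a mean of 50 or more antisense counts, and 4 values stood past 1.4-fold above each DMSO culture with an exact counting interval above 1. By the same rule, of all 2711 antisense entries with such a mean, 14.9% were called in siGSTO1 (3 of the 5 members), 0.443% in C1-27 at 4 h (0 of 5), 6.23% in C1-27 at 24 h (1 of 5) and 0.258% in C1-14 (0 of 5). The 4 values were ABCA9 (1.79-fold the DMSO mean), ABCG5 (1.86-fold) and ABCA12 (1.89-fold) in siGSTO1, and ABCE1 in C1-27 at 24 h (2.13-fold). ABCG5 reached a mean of 50 antisense counts only with the siGSTO1 library included. The 3 of 5 called in siGSTO1 are therefore not independent of that library. Antisense counts of ABCA12 were 56 and 152 in DMSO, 152 in siGSTO1, 137 and 159 in C1-27 at 4 and 24 h and 139 in C1-14, so that antisense exceeded sense in 5 libraries. Those of ABCE1 were 40, 99, 87, 80, 203 and 67 in the same order. ANAPC10 overlaps ABCE1 on the other strand, and its part in these counts was not tested. For ABCG5 antisense counts were 36, 45, 65, 56, 70 and 37, above sense in all 6 libraries, and for ABCA9 28, 66, 66, 67, 92 and 47.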

How the results depend on the processing

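Each count of members was recomputed with 1 choice changed at a time. For the treatments, brackets give the number of all genes called at the same setting. The filters also change how many genes are compared. The 11 members higher in siGSTO1 (1687) became 6 with TMM factors (1310) and 5 with DESeq2 size factors (1234). They became 1, ABCA1, with a pseudocount of 0.1 RPKM (942), 2 with a level above 0.5 RPKM (528) and 17 with no filter (3052). The 1 lower (348) became 3 against the DMSO mean (699), 2 with TMM factors (583) and 2 with DESeq2 size factors (684). It became 2 with no filter (621), and 4 (779) or 2 (974) without a DMSO replicate. DESeq2 called 1 of the 2 members that edgeR called in siGSTO1, where they called 215 and 601 of all genes. In C1-27 at 4 h, the 2 higher (22) became 0 with the pseudocount (10) and 1 above 0.5 RPKM (11). They became 4 with no filter (347). The 0 lower (69) became 2 against the DMSO mean (584), 1 with a mean count of 10 (304) and 1 with no filter (648). Without a DMSO replicate they became 1 (125) or 4 (1937). In C1-27 at 24 h, the 3 higher (484) became 5 against the mean (860) and 5 with no filter (966). Without a replicate they became 8 (1548) or 6 (1044). The 0 lower (128) became 2 with a mean count of 10 (325) and 2 with no filter (618). Without a replicate they became 1 (328) or 3 (1230). In C1-14, the 0 higher (145) became 1 with no filter (538), and 3 (741) or 4 (564) without a replicate. The 0 lower (51) became 2 with a mean count of 10 (261) and 2 with no filter (579). Without a replicate they became 0 (101) or 3 (1369). The 11 members that differed between the DMSO cultures became 5 with the pseudocount. The cause was not tested, except that a pseudocount of 0.1 RPKM is near or above the level of low members and shrinks their folds by construction. Of the recomputed counts 57 stayed within 1.5 times and 35 did not. Of the recomputed folds of named members 262 moved by less than the DMSO spread and 18 by more. Folds without 1 DMSO replicate stayed within that spread by construction, since the DMSO mean lies between the 2 cultures, so they do not show stability. Of those called 0 changed sign. Some not called did, as ABCA7 in C1-27 at 4 h without DMSO replicate 1 (log2 fold from -0.69 to 0.0951). Without either DMSO replicate edgeR has no residual degrees of freedom, so no test was made. No paired analysis was possible because the treatments have 1 culture each. With 1 culture per treatment, a change that varies between cultures cannot be seen. Some levels near or below 0.1 RPKM rest on few counts, as for ABCG4 with 17 to 43. Others, over longer genes, rest on more, as for ABCA10 with 110 to 270.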
